A study of Homo sapiens with 6 samples.

Results

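The 246 genes described here are the expressed autosomal long non-coding RNAs of HGC-27 cells, an established line of undifferentiated gastric carcinoma. They were chosen by their level: the annotation types lincRNA and antisense, a position on chromosomes 1 to 22, and a mean of at least 3 FPKM over the 6 libraries. They are 246 of 12922 autosomal genes of these types and of 58735 genes in all, 126 of them lincRNA and 120 antisense. FPKM is a fragment count scaled by exon length and by a factor for each library, so it compares levels between genes per length. The cells carried either the control vector pSIH-H1-Puro-shNC (3 libraries, shNC) or pSIH-H1-Puro-shACAT2, a hairpin against ACAT2 (3 libraries, shACAT2). ACAT2 is a cytosolic enzyme that makes acetoacetyl-CoA at the head of sterol synthesis. Both groups were exposed to vector for 24 h and then kept in puromycin, for 7 days per the labels, and no cloning step is described. The labels do not tell which of the hairpins used in the study was sequenced. The study's methods describe the negative control as an empty vector. If so, carrying a hairpin and losing ACAT2 cannot be told apart here. The comparison asks which transcripts differ between cells with the ACAT2 hairpin and control cells.

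The RNA of whole cultures was measured, so fewer cells of a kind and less RNA per cell cannot be told apart. ACAT2 itself was at 14.2, 11.7 and 12.7 FPKM in the shNC libraries and at 6.19, 5.46 and 6.05 FPKM in the shACAT2 libraries, given here and below in the order of their numbers (limma adjusted p = 0.0059). Between 14086416 and 16067486 fragments lay on genes in a library. shNC-2 and shNC-3 were far closer to each other (chi-square per gene 1.65) than other replicates (12.5 to 48.5), and it is not known whether they are separate cultures, so p-values measure the spread between these libraries. The library shACAT2-3 held a fragment on 7769 of the 12922 autosomal lncRNA genes, the others on 4499 to 5081. On the 5971 that were silent in the other 5 libraries, its mean signal was 0.0498 FPKM, whereas the lowest of the 246 was at 1.22 FPKM there. The 5 epithelial markers tried (EPCAM, CDH1, KRT8, KRT18, KRT19) summed to 0.505 to 0.830 FPKM in shNC and 1.44 to 2.22 FPKM in shACAT2, and none passed the filter of the test. Only CDH1 had groups apart, with means of 0.161 FPKM in shNC and 0.863 FPKM in shACAT2. The mesenchymal VIM was at 263 ± 25.6 FPKM in shNC and 406 ± 61.0 FPKM in shACAT2 (SD, n = 3 each; limma adjusted p = 0.063), and its part in the results was not tested. The other mesenchymal markers tried did not follow VIM. CDH2 was at means of 0.0249 and 0.0269 FPKM, and the groups of FN1 and ZEB1 overlapped (log2 fold change 0.13 and 0.11, limma adjusted p = 0.51 and 0.80). The gastric lineage markers summed to at most 0.287 FPKM, and 3 of 6 were at 0 throughout.

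Long non-coding RNAs are capped, mostly spliced transcripts that are not translated into a known protein. Some act in cis on neighbouring genes, some build nuclear bodies, and others are hosts whose introns or exons are cut into snoRNAs or miRNAs while the spliced remainder is degraded. Antisense RNAs overlap a gene on the other strand, and divergent ones start back to back with a coding gene from a shared promoter region. Their levels are low compared with mRNA and vary strongly between cell types.

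The following sequences belong to the lncRNAs on which the results turn. MIR22HG, the member with the smallest p, encodes miR-22 in its exons. The mature miR-22 strands on chromosome 17, minus strand, are shown with the seed (bases 2 to 8) in capitals, as RefSeq (GRCh38.p14) gives them at chr17:1713914-1713935 and chr17:1713952-1713973. DNM3OS, the host of miR-214 and miR-199a on chromosome 1, is shown for comparison because its host transcript was not called. No seed occurs more than once among these strands.
hsa-miR-22-3p: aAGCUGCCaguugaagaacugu
hsa-miR-22-5p: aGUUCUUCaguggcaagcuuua
hsa-miR-214-3p: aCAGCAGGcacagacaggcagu
hsa-miR-199a-3p: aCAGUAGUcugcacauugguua
hsa-miR-199a-5p: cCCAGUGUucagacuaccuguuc

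RefSeq promoters, from 250 bases before to 50 after a transcript start, matched 71 of the 246 genes by symbol. Among them were 6 of the 15 genes called below. The 4 that follow are the member called higher with the smallest p and 3 lower ones with a described role, and capitals mark CCAAT or its reverse complement ATTGG, the box bound by the general factor NF-Y. They are MIR22HG (chr17:1716161-1716460, minus strand), OLMALINC (chr10:100373326-100373625, plus strand), HOTTIP (chr7:27200171-27200470, plus strand) and FENDRR (chr16:86508811-86509110, minus strand). The RefSeq starts lie 964, 63, 1846 and 239 bases from the gene starts in the deposited table.
MIR22HG: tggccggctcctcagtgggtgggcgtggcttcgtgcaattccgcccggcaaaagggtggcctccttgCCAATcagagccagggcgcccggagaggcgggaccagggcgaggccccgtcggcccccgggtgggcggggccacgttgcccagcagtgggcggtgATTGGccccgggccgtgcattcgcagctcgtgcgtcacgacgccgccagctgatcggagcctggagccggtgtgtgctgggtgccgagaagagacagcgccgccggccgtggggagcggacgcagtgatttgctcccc
OLMALINC: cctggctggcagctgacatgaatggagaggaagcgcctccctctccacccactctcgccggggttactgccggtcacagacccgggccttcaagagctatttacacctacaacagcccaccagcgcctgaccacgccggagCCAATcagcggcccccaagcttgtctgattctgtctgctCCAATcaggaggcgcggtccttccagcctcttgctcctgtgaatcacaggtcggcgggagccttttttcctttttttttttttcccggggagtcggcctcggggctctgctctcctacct
HOTTIP: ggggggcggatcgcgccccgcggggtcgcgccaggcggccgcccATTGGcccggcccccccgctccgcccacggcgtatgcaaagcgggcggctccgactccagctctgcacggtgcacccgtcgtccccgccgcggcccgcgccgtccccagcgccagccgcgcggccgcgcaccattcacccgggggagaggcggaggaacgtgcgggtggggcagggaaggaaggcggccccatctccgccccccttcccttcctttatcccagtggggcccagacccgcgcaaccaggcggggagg
FENDRR: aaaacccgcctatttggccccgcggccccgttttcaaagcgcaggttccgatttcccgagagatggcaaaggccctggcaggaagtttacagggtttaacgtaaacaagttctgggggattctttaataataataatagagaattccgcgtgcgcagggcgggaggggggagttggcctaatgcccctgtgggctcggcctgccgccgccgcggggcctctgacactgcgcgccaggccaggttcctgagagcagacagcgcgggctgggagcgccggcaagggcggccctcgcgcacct

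The CCAAT box occurred 2 times in the MIR22HG window, 2 times in that of OLMALINC and 1 time in that of HOTTIP, on either strand, and in none of the FENDRR window. Over the 84 promoters of matched members, 44.0% held it, against 34.6% of all 35116 RefSeq promoters. The GC box GGGCGG, searched on both strands, was in 70.2% of the members' promoters and 45.0% of all, and the members' promoters had a median GC content of 64.8% against 58.7%. The letters TGANTCA, a loose form of the AP-1 element with any central base, were in 3.57% of the members' promoters and in 7.71% of all. Of the 6 called genes with a promoter they were in the OLMALINC window alone, where they read TGAATCA. None of those 6 held the TATA box TATAAA. The E-box letters CACGTG were likewise absent from the 6 windows, as was the cyclic AMP element TGACGTCA. These are matches of letters in a fixed window, and binding was not measured. The members were chosen for expression and the RefSeq promoters as a whole were not, so the shares do not compare genes of like expression.

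Most of the 246 lncRNAs were weakly expressed, 132 between 3 and 5 FPKM, 77 between 5 and 10 FPKM and 37 at 10 FPKM or more. Together they held 0.342% to 0.404% of the fragments on genes in a library, a mean of 103 fragments per library for the median gene. The highest mean levels over the 6 libraries were those of AC099850.3 (48.8 FPKM), SNHG19 (46.4 FPKM), SNHG8 (43.0 FPKM), AL513165.1 (39.8 FPKM) and SNHG7 (31.8 FPKM). Just above the limit of the rule lay AC092279.1, USP46-AS1 and AL513318.2 (3.00 to 3.01 FPKM), and just below it AC012531.1, LINC00997 and FLJ20021 (2.97 to 2.98 FPKM). Of the members, 205 had both group means at 3 FPKM or more, 25 only the shNC mean and 16 only the shACAT2 mean.

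All 246 were among the 13832 genes tested, which are the genes whose shNC or shACAT2 mean reached 1 FPKM. A gene is said here to have been called where limma's adjusted p over all tested genes was under 0.05. By that rule 15 of 246 lncRNAs (6.10%) were called, against a background of 5.10% of the genes tested. Of these, 4 rose in shACAT2, where 3.30% of all genes were called higher, and 11 fell, where 1.81% were called lower. Under upper-quartile scaling, 3 of 20 called lncRNAs rose, and the calls over all genes changed from 456 higher and 250 lower to 436 higher of 801. With the members limited to the 205 at 3 FPKM in both group means, 2 rose and 9 fell. MIR22HG and AC005332.6, described below, are not among the 205, since only their shACAT2 means reached 3 FPKM. At an unadjusted p under 0.05, 61 members passed, a share of 24.8% beside 23.5% of all genes, with 16 higher and 45 lower. With a log2 fold change above 1 or below −1 and an unadjusted p under 0.05, 6 members passed, 3 each way, beside 1.50% of all genes. The share of all calls and the share at an unadjusted p were both near the background.

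The count of calls rested on the libraries. Without shNC-1, shNC-2 or shNC-3 it was 3, 2 or 1, without shACAT2-2 it was 4, and it was 2 when the close pair shNC-2 and shNC-3 was merged into 1 library. The calls over all genes also fell in these fits, from 706 to 135, 101, 63, 129 and 83 in the same order. The low counts were therefore not particular to the lncRNAs. Without shACAT2-1 or shACAT2-3 the count of called lncRNAs was 22 or 20, beside 862 or 704 calls over all genes. With the replicate number as a block the count of lncRNAs was 29, of which 7 rose and 22 fell, and 12.5% of all genes were called in that fit. MIR22HG was called in all 14 alternative fits and OLMALINC in 13 of them, missing the threshold without shNC-3 (limma adjusted p = 0.058). Each of the other 13 lost the call in some fit with 1 library left out, their highest adjusted p in such fits lying between 0.077 and 0.187. The direction of all 15 was the same in the alternative fits that tested them, which were all 14 except for AP001469.2, left out where at least 10 fragments in every library were required.

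**Figure D1:**
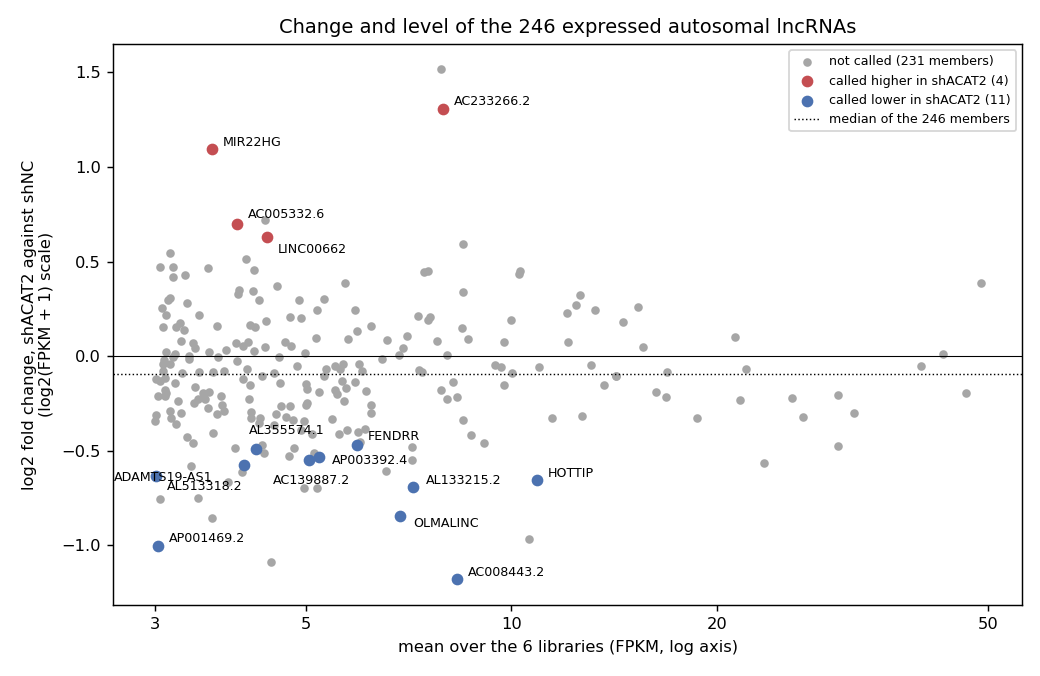
Log2 fold change of shACAT2 against shNC on the log2(FPKM + 1) scale (vertical) against the mean over the 6 libraries (FPKM, log axis) for the 246 lncRNAs, each a point. The 4 called higher are red, the 11 called lower blue, and the dotted line is the median of −0.10.

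The direction leaned downward beyond the genes called. The log2 fold change was below 0 for 156 of 246 members (63.4%), with a median of −0.10, against 47.7% and a median of 0.02 over all genes tested. The 3 shACAT2 values lay all below the 3 shNC values for 53 members (21.5%), where the background was 14.5%. They lay all above for 21 (8.54%), where the background was 16.2%. Of the 120 antisense RNAs 5 lay all above and 24 all below, and of the 126 lincRNAs 16 lay all above and 29 all below, a difference that was not tested. Among protein-coding autosomal genes of 3 to 10 FPKM, 16.7% lay above and 15.01% below. The 29 autosomal genes of the type processed_transcript at 3 FPKM or more had a median of −0.10. The summed level of the 246 was 1845, 1797 and 1775 FPKM over the shNC libraries and 1848, 1665 and 1592 FPKM over the shACAT2 libraries, so that shACAT2-1 lay just above the highest shNC library and the other two below the lowest. By share of the fragments on genes the order differed. The 246 held 0.383%, 0.404% and 0.403% in shNC and 0.342%, 0.360% and 0.362% in shACAT2. There shACAT2-1 was the lowest, and all shACAT2 libraries lay below the shNC libraries. Without shACAT2-3 the members' median was −0.04 and 135 of 246 were below 0, beside a median of 0.05 over all genes tested in that fit. No p is attached to these shares.

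**Figure D2:**
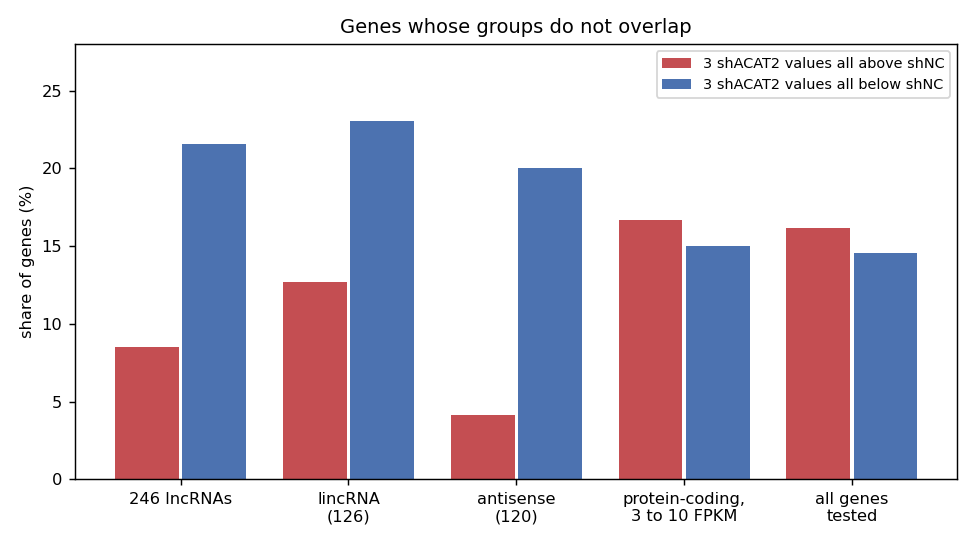
Share of genes (%) whose 3 shACAT2 values lie all above (red) or all below (blue) the 3 shNC values. Among the 246 lncRNAs the share below, 21.5%, exceeds the share above, 8.54%, while both shares lie between 14.5% and 16.7% for all genes tested and for protein-coding genes of 3 to 10 FPKM.

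Among the lncRNAs that rose, MIR22HG (ENSG00000186594, chr17:1711493-1717174 of GRCh38, minus strand) had the smallest p. It is the primary transcript of miR-22, a miRNA described as a tumour suppressor in gastric cancer, and its exons hold the 85 bases of the MIR22 gene. It was at 1.93, 1.80 and 2.18 FPKM in shNC and at 5.25, 5.50 and 5.22 FPKM in shACAT2, from 87 to 273 fragments per library. Both groups were tight and far apart, with means of 1.97 ± 0.192 and 5.32 ± 0.153 FPKM (SD, n = 3 each). MIR22HG thus met the level rule of 3 FPKM only through the group in which it was high. The ratio of the means was 2.71 and the log2 fold change was 1.09 (SE 0.09, limma adjusted p = 0.0035). The host was measured here and not the mature miRNA. WDR81, the coding gene that overlaps it on the other strand, was at 4.83 ± 0.313 and 4.72 ± 0.974 FPKM (SD, n = 3 each) and was not called.

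AC233266.2 (chr2:91580336-91580863), an uncharacterised lincRNA, was at 4.08, 3.97 and 4.17 FPKM in shNC and at 12.3, 8.55 and 14.5 FPKM in shACAT2. The shACAT2 values were spread but all above the shNC values, and the log2 fold change was 1.31 (SE 0.18, limma adjusted p = 0.013). Of its 50-base words, 14.6% also occur in another annotated gene, most often in TMEM128, so part of its reads is uncertain. AC005332.6 rose from 2.77 ± 0.254 to 5.14 ± 0.510 FPKM (SD, n = 3 each; log2 fold change 0.70, SE 0.10, limma adjusted p = 0.016). It shares 48.4% of its exon bases with the pseudogene LRRC37A16P on the other strand. No source used here states whether fragments were counted by strand, so its level is uncertain, as is that of any of the 111 members that share an exon base with another gene.

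LINC00662 (chr19:27684580-27793940, minus strand), a long lincRNA reported in several tumour types, was at 2.71, 3.70 and 3.27 FPKM in shNC and at 4.94, 5.82 and 5.85 FPKM in shACAT2. Its log2 fold change was 0.63 (SE 0.12, limma adjusted p = 0.033), and the call held in 5 of the 14 alternative fits and in neither other scaling. AC006504.1, a lincRNA that lies within the span of LINC00662 on the same strand, was at 3.17, 3.08 and 3.23 FPKM in shNC and at 3.70, 5.596 and 5.73 FPKM in shACAT2. Its shACAT2 values were also all above (log2 fold change 0.51, SE 0.15), but it was not called (limma adjusted p = 0.10).

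The lncRNA with the smallest p among those that fell was OLMALINC (ENSG00000235823, chr10:100373513-100454043, plus strand). It is a primate-specific lincRNA first described in oligodendrocytes, and a role in the control of the neighbouring SCD, the stearoyl-CoA desaturase, has been described in liver. It was at 9.20, 8.54 and 9.58 FPKM in shNC and at 4.75, 4.89 and 4.26 FPKM in shACAT2, from 496 to 1282 fragments. The groups were well apart, with a ratio of the means of 0.509 and a log2 fold change of −0.84 (SE 0.09, limma adjusted p = 0.0070). SCD ends 8679 bases before OLMALINC on the same strand and was looked up after the value of OLMALINC was seen. It was at 392 ± 28.1 FPKM in shNC and 295 ± 24.5 FPKM in shACAT2 (SD, n = 3 each), with all 3 shACAT2 values below, but it was not called (log2 fold change −0.41, SE 0.12, limma adjusted p = 0.095). Of the 50-base words of OLMALINC, 12.8% occur in other genes.

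HOTTIP (ENSG00000243766, chr7:27198575-27207259, plus strand) is transcribed from the 5′ end of the HOXA cluster and is known to recruit a histone methyltransferase complex to HOXA genes. It was at 14.99, 12.96 and 12.8 FPKM in shNC and at 8.26, 8.52 and 7.91 FPKM in shACAT2. No shACAT2 library came near the shNC range, and the log2 fold change was −0.66 (SE 0.10, limma adjusted p = 0.017). HOXA13, its neighbour on the other strand and a transcription factor of posterior identity, was at 20.3, 22.7 and 20.5 FPKM in shNC and at 19.2, 21.0 and 23.6 FPKM in shACAT2, so its groups overlapped. Its adjusted p was 0.99. The exons of HOTTIP share 86 bases with HOXA13. The other HOX cluster members were HOXD-AS2 and HOTAIR, the latter a scaffold for chromatin modifiers that is often raised in tumours. HOXD-AS2 was at 5.71 ± 0.875 and 4.11 ± 0.579 FPKM (SD, n = 3 each; log2 fold change −0.39, limma adjusted p = 0.14, and 0.038 with the replicate block). HOTAIR was at 8.54, 8.46 and 8.20 FPKM in shNC and at 8.35, 7.65 and 6.10 FPKM in shACAT2, with overlapping groups.

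FENDRR (ENSG00000268388, chr16:86474529-86509099, minus strand), a lincRNA needed for heart and body wall development, starts next to FOXF1, a mesenchymal transcription factor. Its levels were 7.24, 6.84 and 7.11 FPKM in shNC and 4.81, 4.93 and 4.74 FPKM in shACAT2, with little spread in either group. The log2 fold change was −0.47 (SE 0.08, limma adjusted p = 0.025). FOXF1 was at 9.32 ± 0.474 and 11.0 ± 1.24 FPKM (SD, n = 3 each), with the shACAT2 values all above the shNC values, and was not called (log2 fold change 0.22, SE 0.11, limma adjusted p = 0.27).

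The remaining 8 lncRNAs that fell have no described role of note. AL133215.2, which starts 836 bases from KAZALD1 on the other strand, was at 8.76, 9.22 and 9.32 FPKM in shNC and at 5.19, 5.30 and 5.25 FPKM in shACAT2 (log2 fold change −0.69, SE 0.08, limma adjusted p = 0.0080). AC008443.2 had the largest decrease of all 246, from 11.1, 13.03 and 11.3 FPKM to 3.96, 7.01 and 3.52 FPKM (log2 fold change −1.18, SE 0.22, limma adjusted p = 0.030). AP001469.2, antisense to MCM3AP, fell by 1.00 on the log2 scale (limma adjusted p = 0.0496) but rests on 6 to 35 fragments per library. The other 5, AL513318.2, AP003392.4, AC139887.2, ADAMTS19-AS1 and AL355574.1, fell to between 0.553 and 0.658 of their shNC means. AL355574.1 had 14 to 26 fragments per library and an adjusted p of 0.0496.

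**Figure D3:**
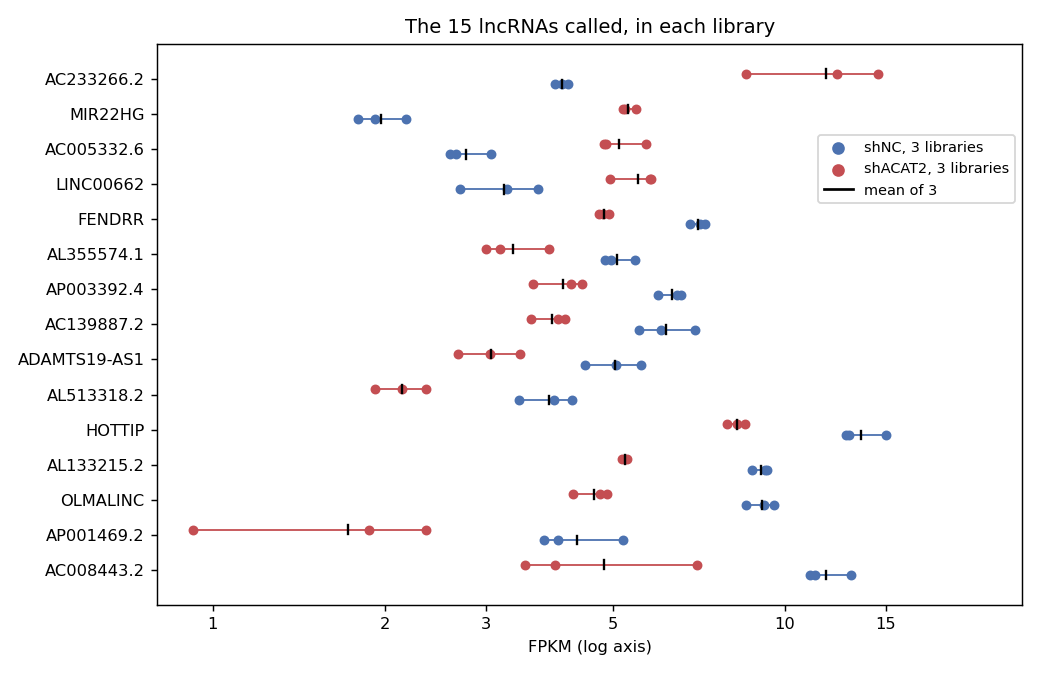
FPKM (log axis) of the 15 lncRNAs called, with 3 shNC libraries in blue, 3 shACAT2 libraries in red and the mean of each group as a black tick. The groups of every gene shown are apart, and AC008443.2, AP001469.2 and AC233266.2 have the widest shACAT2 groups.

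Some large differences did not pass the test. AL355075.4 had the largest log2 fold change of the members, 1.52 (SE 0.43, limma adjusted p = 0.098). It was at 3.17, 3.09 and 3.27 FPKM in shNC and at 17.4, 15.8 and 4.49 FPKM in shACAT2, so that shACAT2-3 was close to the shNC libraries and the other two were not. Its 638 exon bases share 437 bases with other genes, 333 of them with RPPH1, the RNA of RNase P, which is listed at 0 in all 6 libraries, and 104 with PARP2. GS1-124K5.4 was at 6.17, 5.48 and 7.30 FPKM in shNC and at 3.78, 2.56 and 1.36 FPKM in shACAT2, with all shACAT2 values lower (log2 fold change −1.09, SE 0.25, limma adjusted p = 0.056). AL928654.2 was at 28.1 ± 1.27 and 18.8 ± 3.07 FPKM (SD, n = 3 each; limma adjusted p = 0.058, and 0.046 with the replicate block), and 68.1% of its exon bases lie opposite MTA1. In the highest member, AC099850.3, the values were 44.6, 45.0 and 36.5 FPKM in shNC and 54.8, 46.1 and 65.8 FPKM in shACAT2, all above but not called (limma adjusted p = 0.20).

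Of the 246 lncRNAs, 117 overlapped a protein-coding gene on the other strand, 31 started within 1000 bases of one in the opposite direction and 98 had neither. The overlapping set had 4 calls lower and 1 higher (4.27%) and a median log2 fold change of −0.14. The divergent set had 3 calls (9.68%), all lower, and a median of −0.19. Those without a partner had 3 higher and 4 lower (7.14%) and a median of −0.06. Over all genes tested 5.10% were called, and with so few calls the classes were not compared by a test. In 130 pairs the coding partner was tested too. Of the 128 partner genes 7 were called (5.47%), 2 higher and 5 lower, a share near the background. In no pair were both the lncRNA and its partner called. Over the 130 pairs the log2 fold changes had a Pearson r of 0.13 and a Spearman rho of 0.15, and the signs were alike in 67 (51.5%). The pairs share their libraries, and overlapping exons could share reads, so this is a description only. In the 29 divergent pairs, of which RAB30-AS1 and RAB30 shared 435 exon bases, r was −0.00020.

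**Figure D4:**
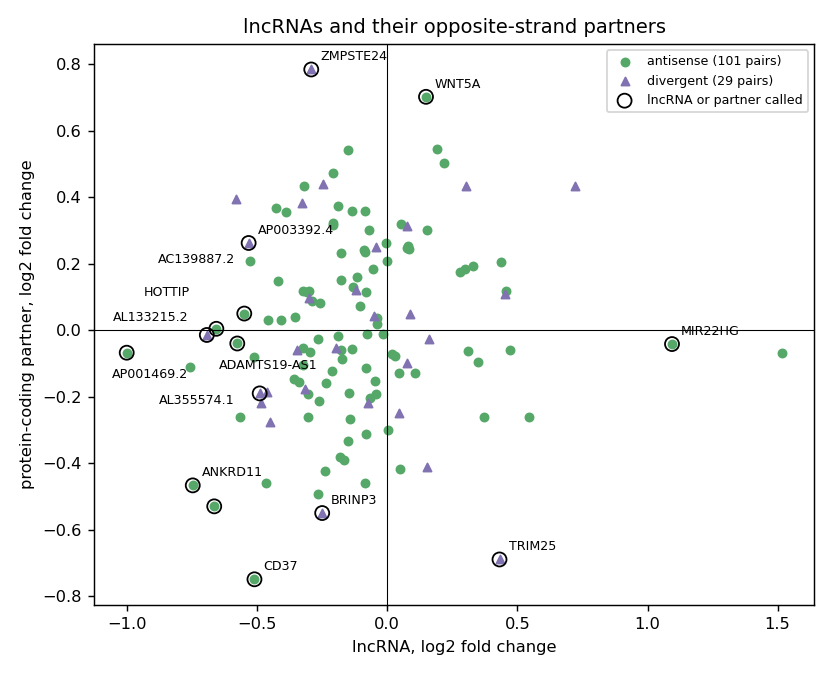
Log2 fold change of the lncRNA (horizontal) and of its protein-coding partner (vertical) for 101 antisense pairs (circles) and 29 divergent pairs (triangles), with the pairs in which either gene was called ringed and all but 1 of them labelled by the gene called. The 8 called lncRNAs lie between −0.19 and 0.26 on the partner axis.

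The 8 called lncRNAs with a tested partner had partners with log2 fold changes between −0.19 and 0.26, none of them called. The shACAT2 values lay all above the shNC values for CCDC84 and PCGF3 (log2 fold change 0.26 and 0.05). They lay all below for CAMSAP1 (−0.19), and the groups of the remaining partners overlapped. None of the lncRNAs beside the 7 called partners was called. ZMPSTE24, the protease that matures lamin A, rose from 23.1 ± 1.71 to 40.5 ± 4.57 FPKM (SD, n = 3 each; log2 fold change 0.78, limma adjusted p = 0.020), while its divergent lncRNA AL050341.2 was at 3.60 ± 0.899 and 2.72 ± 0.248 FPKM. TRIM25, a ubiquitin ligase of antiviral signalling, fell from 14.9 ± 1.14 to 8.86 ± 0.0977 FPKM (log2 fold change −0.69, limma adjusted p = 0.013), while the divergent AC015912.3 was at 2.73 ± 1.27 and 3.92 ± 0.951 FPKM. WNT5A, a ligand of non-canonical Wnt signalling, rose from 8.91 ± 0.461 to 15.1 ± 1.42 FPKM (log2 fold change 0.70, limma adjusted p = 0.016), with WNT5A-AS1 at 7.97 ± 1.02 and 8.96 ± 1.42 FPKM. ANKRD11, CD37 and BRINP3 fell by 0.47 to 0.75 on the log2 scale, and their lncRNAs AC137932.1, AC011450.1 and LINC01351 had log2 fold changes of −0.75, −0.51 and −0.25 without being called.

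Hosts of snoRNAs were 3 of the 5 members with the highest levels. Their spliced host RNAs are known to be short-lived, since many are degraded by nonsense-mediated decay. None of the 10 members that hold a snoRNA or scaRNA gene was called by limma. With 5.10% of all genes tested called, 10 genes are too few to read this as a difference. At an unadjusted p under 0.05 there was 1 of the 10, ZFAS1, beside 23.5% of all genes tested. ZFAS1 was at 32.2, 29.3 and 27.8 FPKM in shNC and at 25.3, 20.7 and 25.0 FPKM in shACAT2 (log2 fold change −0.32, SE 0.12, limma adjusted p = 0.16). ZFAS1, the host of SNORD12 genes, and SNHG4 were the hosts whose shACAT2 values lay all below the shNC values. SNHG4 was at 32.3 ± 1.401 and 27.9 ± 1.69 FPKM (SD, n = 3 each; log2 fold change −0.21, limma adjusted p = 0.26). SNHG7 was at 38.9, 31.8 and 31.9 FPKM in shNC and at 40.7, 30.6 and 16.7 FPKM in shACAT2. SNHG19 was at 56.9, 44.5 and 45.3 FPKM in shNC and at 59.5, 41.3 and 30.8 FPKM in shACAT2. SNHG8 was at 46.9, 39.4 and 41.3 FPKM and at 53.4, 39.2 and 37.5 FPKM. In these 3 the spread within shACAT2 was larger than any difference between the groups.

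The libraries numbered 1 were the highest of their group for 8 of the 10 hosts in shNC and for 9 of 10 in shACAT2, and shACAT2-3 was the lowest for 8. Over all genes tested, shNC-1 was the highest of its group for 52.4% and shACAT2-1 for 49.9%. The part of the deposited scaling in this order was not tested. The hosts summed to 269, 234 and 234 FPKM in shNC and to 269, 208 and 182 FPKM in shACAT2. NORAD, an abundant cytoplasmic lncRNA that binds Pumilio proteins, went the other way within the groups, with 27.7, 37.9 and 39.8 FPKM in shNC and 19.997, 31.5 and 23.9 FPKM in shACAT2. Its log2 fold change was −0.47 (SE 0.20, limma adjusted p = 0.22, and 0.055 with the replicate block), and the groups overlapped. Its longest transcript holds 15 matches of the Pumilio element TGTANATA on the transcript strand, and 35.3% of its 50-base words occur in other genes. HCG11 was the only member with more matches, 16, and 23 of the 246 had any. The pair is not independent in sequence, since 7.77% of the 50-base words of HCG11 occur in genes elsewhere, most often in NORAD. Its levels were 4.29, 5.85 and 6.48 FPKM in shNC and 3.92, 5.46 and 4.001 FPKM in shACAT2, lowest in the library numbered 1 of each group, as for NORAD.

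**Figure D5:**
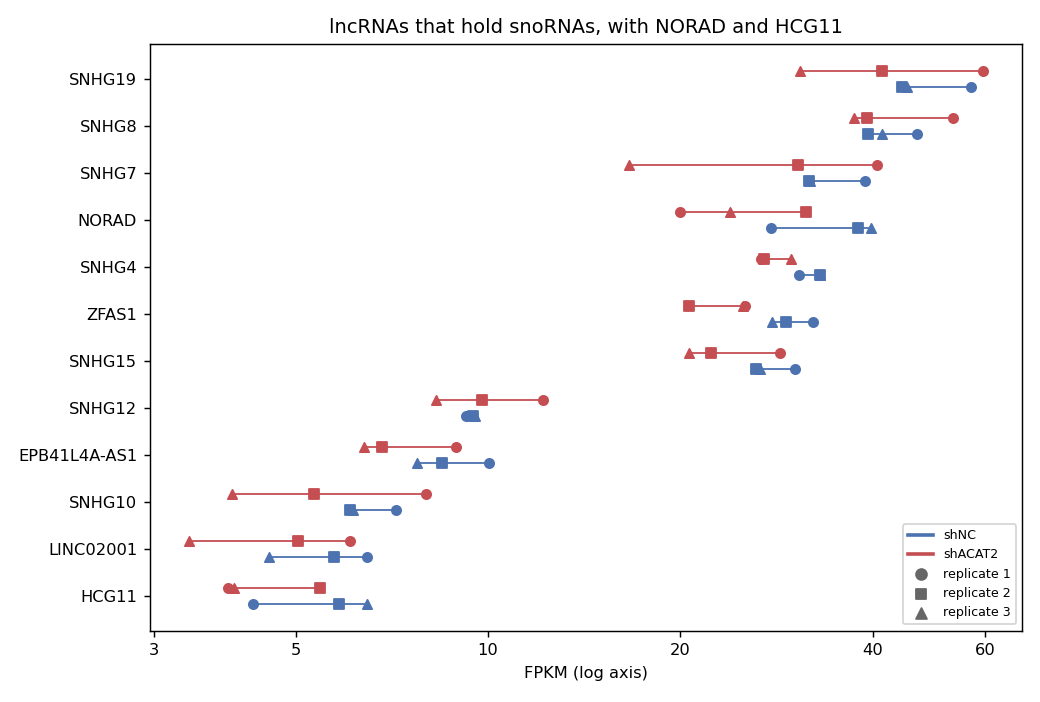
FPKM (log axis) of the 10 lncRNAs that hold snoRNA or scaRNA genes and of NORAD and HCG11, with shNC in blue, shACAT2 in red and the replicate number as the symbol. The circles of replicate 1 sit at the high end of the line in both groups for most hosts and at the low end for NORAD and HCG11.

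The nuclear architectural lncRNAs were not called. NEAT1, the scaffold of paraspeckles, was at 9.75, 10.6 and 10.3 FPKM in shNC and at 7.43, 8.74 and 11.6 FPKM in shACAT2. MALAT1, a lncRNA of nuclear speckles, was at 9.24, 12.0 and 12.1 FPKM in shNC and at 9.83, 15.04 and 16.5 FPKM in shACAT2 (log2 fold change 0.27, SE 0.20). In both the groups overlapped. PVT1, next to MYC and often amplified with it, was at 20.5 ± 1.31 and 22.04 ± 1.88 FPKM (SD, n = 3 each). Of the 7 members on a list of lncRNAs described in gastric cancer, MIR22HG was the only one called. These lists are too short to set against the 5.10% called over all genes tested. No imprinted lncRNA of the list passed the level rule.

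Apart from MIR22HG, 5 members hold miRNA genes, and none of them was called by limma or had an unadjusted p under 0.05. Of all genes tested 5.10% were called and 23.5% had such a p, so 5 genes are too few for a comparison. DNM3OS was at 3.31, 3.57 and 4.59 FPKM in shNC and at 2.78, 3.20 and 3.36 FPKM in shACAT2. AL132655.2, the host of MIR296, was at 3.92 ± 1.501 and 3.19 ± 1.06 FPKM, and AC016205.1 at 3.12 ± 0.548 and 3.07 ± 0.592 FPKM (SD, n = 3 each), all with overlapping groups.

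The proteins that make, process or degrade lncRNAs were looked at as a list of 58 genes, of which 57 were tested. None was called by limma, 7 had an unadjusted p under 0.05, and limma-voom and the replicate block called 4 and 5. Over all genes tested limma called 5.10%, and 23.5% had an unadjusted p under 0.05. Limma-voom and the replicate block called 8.42% and 12.5% of all genes. SRRM2, the core of nuclear speckles, was at 77.6 ± 1.48 and 53.4 ± 6.88 FPKM (SD, n = 3 each; log2 fold change −0.54, limma adjusted p = 0.055, and 0.043 with the replicate block). GAR1, a subunit of H/ACA snoRNPs, was at 13.8 ± 0.553 and 19.02 ± 1.43 FPKM (log2 fold change 0.43, limma adjusted p = 0.055, and 0.036 with the replicate block). SMG6 and SMG5, which act in nonsense-mediated decay, had log2 fold changes of −0.35 and −0.37 (limma adjusted p = 0.098 and 0.12), and SMG5 was called with the replicate block (0.038). Of the 9 decay factors 8 were below 0, with a median log2 fold change of −0.25, and of the 8 snoRNP factors 7 were above 0, with a median of 0.13. A lean was not particular to these lists, since 7 of the 8 factors of the RNA mark m6A were below 0 (median −0.11). Of all 57 factors tested 36 were below 0 and 21 above. Over all genes tested 47.7% were below 0.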

How the data were processed

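Total RNA of HGC-27 cells was sequenced as 3 shNC and 3 shACAT2 libraries, grouped by the sample labels. The authors deposited FPKM values for 58735 genes. The submitters' processing notes name HISAT2 2.0.5, featureCounts 1.5.0-p3, DESeq2 1.20.0 and the build hg38; the strand setting and annotation release are not given in the sources used here. All gene lengths and spans equalled GENCODE release 29 on GRCh38. Dividing by the step of 1 fragment gave whole fragments (within 0.05) for 100% of values, 14086416 to 16067486 per library. The deposited scaling did not follow the fragments on genes alone. In shACAT2-1, with 15867286 fragments on genes, 1 fragment per kilobase stood for 0.0659 FPKM. In shACAT2-2, with 16053419, it stood for 0.0602 FPKM. Differences were tested, two-sided, with limma 3.58.1 (R 4.3.3, trend) on log2(FPKM + 1) for the 13832 genes whose shNC or shACAT2 mean reached 1 FPKM, with Benjamini-Hochberg adjustment over all of them. Fold changes on this scale understate those of low genes. A "ratio of the means" is on the FPKM scale. Python 3.11.15, pandas 2.3.3 and matplotlib 3.10.9 drew the tables and figures, and the fit was tested on simulated data.

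The members and all lists were chosen with earlier results of these data known. Named were the 15 members with the smallest p each way whose groups do not overlap (in the text mostly those called), the 10 highest, members on lists of known lncRNAs, hosts of small RNAs, and their partners. HCG11, SCD, FOXF1 and the called partners of other members were added after values were seen. Partners were taken from coordinates: an overlapping coding gene on the other strand, else one whose start lies within 1000 bases. Words of 50 bases were compared with GENCODE transcripts of genes elsewhere. Same-numbered libraries deviated together from their group means (r = 0.445, 0.126 and 0.171). Yet shNC-2 with shACAT2-3 (r = 0.198) and shNC-3 with shACAT2-2 (r = 0.141) did so too, so only number 1 stood apart. A pairing by number is therefore uncertain. The fit used throughout has no block, and the replicate block is an alternative only. Alternatives were other scalings, filters and pseudocount, limma-voom, the replicate block, libraries left out, an average of shNC-2 and shNC-3, and other call and level rules. The values of 1 called partner and its lncRNA are not reported here.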

Additional observations from a re-analysis of the deposited data

How the results depend on the processing

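Of the 15 lncRNAs called, 4 higher and 11 lower, the number depended on the libraries, the block and the level rule. With 1 library left out it ranged from 1 to 22, those higher from 1 to 6 and those lower from 0 to 17; partners called ranged from 0 to 8 and processing factors from 0 to 2. The lowest counts came without an shNC library or shACAT2-2. Merging the close pair shNC-2 and shNC-3 gave 2 (1 higher, 1 lower) and 0 partners called. Without the filter it was 5 (1 higher, 4 lower) with 1 partner, 58735 genes being adjusted for. In the fit with the replicate block it was 29 (7 higher, 22 lower), with 15 partners and 5 factors, and the 15 of the unblocked fit were among the 29. Upper-quartile and library-size scaling each gave 17 lower and 3 factors, limma-voom gave 4 factors, and at least 10 fragments in every library gave 2 factors. By fold change and unadjusted p there were 6 (3 lower). With members from 1 FPKM (908 genes) there were 35 (12 higher, 23 lower), from 10 FPKM (37 genes) 1 (0 higher, 1 lower), and with 3 FPKM in both group means 2 higher. Why the counts moved was not tested, apart from the smaller or larger sets of genes and libraries these settings use. The number of all genes called was 706 in the unblocked fit, 1165 with limma-voom, 1727 with the block, 1034 with at least 10 fragments, 160 without the filter and 83 with the merged pair, and between 63 and 862 with 1 library left out. Over 51 of the genes given with a fold change, none of 713 alternative values changed sign, 125 lost the call and 50 gained it. Depth limits AP001469.2 and AL355574.1, with as few as 6 and 14 fragments.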

Other observations

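Neighbouring expressed lncRNAs did not always have like values. HOTTIP fell (log2 fold change −0.66), whereas AC004080.2, 5127 bases away on the other strand, was at 10.9 ± 0.676 and 13.3 ± 4.17 FPKM (SD, n = 3 each; limma adjusted p = 0.58). AP003392.4 fell (−0.53), whereas AP003392.1, 5738 bases away on the same strand, was at 4.58 ± 0.603 and 4.55 ± 0.353 FPKM (limma adjusted p = 0.98). AC008443.2 fell (−1.18), and AC138035.1, 22850 bases away, was at 5.12 ± 0.895 and 3.86 ± 1.34 FPKM (limma adjusted p = 0.38), but 85.0% of the 50-base words of AC138035.1 occur in genes elsewhere. These pairs were picked after their values were seen, and no difference within a pair was tested.

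Coding genes within 5000 bases of a named lncRNA were looked up after its values were seen. CRIP2, a LIM-domain protein gene 2345 bases from AL928654.2, was at 24.8 FPKM in shNC and 51.1 FPKM in shACAT2 (log2 fold change 0.97, SE 0.23, limma adjusted p = 0.058, and 0.030 with the replicate block). CPLX1, a complexin gene 3108 bases from AC139887.2, was at 5.98 and 11.6 FPKM (log2 fold change 0.83, SE 0.19, limma adjusted p = 0.055, and 0.034 with the replicate block). Neither passed in the fit used throughout, and each was called in 6 of the 14 alternative fits, the replicate block among them. The named lncRNAs beside them had log2 fold changes of −0.57 and −0.55.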
